A study of Homo sapiens with 6 samples.

Results

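The receptors, ligands and close regulators of the epidermal growth factor receptor (EGFR) family were examined in HepG2-hCAR cells, in 9 genes chosen by symbol: the receptors EGFR, ERBB2 and ERBB3, the ligands AREG, EREG, TGFA and HBEGF, the inhibitor ERRFI1 and the adaptor GRB7. All 9 were among the 11456 genes of the deposited table. HepG2 is a human hepatocellular carcinoma line, and HepG2-hCAR is a single-cell clone of it that was selected with puromycin and carries a lentiviral cDNA, inducible by doxycycline, for the nuclear receptor CAR (constitutive androstane receptor, gene NR1I3). The 3 doxycycline libraries came from cells given 1 µg/ml doxycycline and the 3 vehicle libraries from cells given vehicle, all for 72 h. Both groups carry the lentiviral construct, all cells are of 1 clone, and no cells without the construct were given doxycycline, so what the antibiotic did and what the receptor did cannot be told apart. No label says that replicate libraries were grown as separate cultures, so the p-values measure the spread between these libraries, which may be technical.

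Receptors of the EGFR family are tyrosine kinases that pair with each other when a ligand binds. Their ligands are made as membrane-bound precursors and are released by metalloproteases, after which the paired receptors signal through adaptors to RAS and ERK and to PI3K and AKT. ERBB2 has no known ligand of its own, and ERBB3 has little kinase activity and signals through its partner. In hepatocytes, EGF acting on EGFR is known to hold CAR in its inactive, phosphorylated form in the cytoplasm, and the phosphatase PP2A, with the scaffold RACK1, is known to remove that phosphate.

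HBEGF, the heparin-binding ligand of EGFR and ERBB4, and EGFR itself rose with doxycycline, and the adaptor GRB7 and the inhibitor ERRFI1 fell. The ratio was 0.733 for GRB7 and 0.901 for ERRFI1. Neither decrease passed the test when doxycycline replicate 3, vehicle replicate 1 or vehicle replicate 2 was left out. HBEGF averaged 4.14 ± 0.0951 FPKM in doxycycline cells and 0.906 ± 0.180 FPKM in vehicle cells, a ratio of 4.57 (SD, n = 3 libraries each, as for all means below). EGFR averaged 5.39 ± 0.615 FPKM in doxycycline cells and 3.60 ± 0.332 FPKM in vehicle cells, a ratio of 1.50. The other 5 genes did not pass the test. FPKM, fragments per kilobase of transcript scaled to the mapped fragments of the library, gives each gene relative to all others and not as RNA per cell. In these bulk samples fewer cells of a type and less RNA per cell cannot be told apart.

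Differences were tested with limma on log2(FPKM + 1) across the 10469 genes with a mean of at least 1 FPKM, and a gene was called at a Benjamini-Hochberg adjusted p below 0.05. All log2 differences below are doxycycline minus vehicle on that scale, which understates the change of weakly expressed genes. All 9 genes passed the filter, HBEGF only through its doxycycline level, since its vehicle mean was below 1 FPKM. The same holds for PDGFRB and KLRC3, given below. ALB, AFP, PGAP3 and C2CD4A, also given below, passed it only through their vehicle level. Of the 9 genes 2 were called higher, where 15.2% of all tested genes were, and 2 were called lower, where 13.6% of all tested genes were. Called genes made up 44.4% of the 9 and 28.8% of all genes tested. The groups did not overlap in 8 of the 9, with all doxycycline libraries above in 2 and all below in 6, and they did not overlap in 47.1% of all genes tested (24.8% above and 22.3% below). AREG is counted here by its own entry, and its groups overlapped once a near-identical copy was added, as given below. The median log2 difference was -0.17 over the 9 genes and 0.01 over all genes tested. These counts were not tested. With so few genes, and with calls this common in the whole table, they do not show whether the family differs from other genes.

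**Figure D1:**
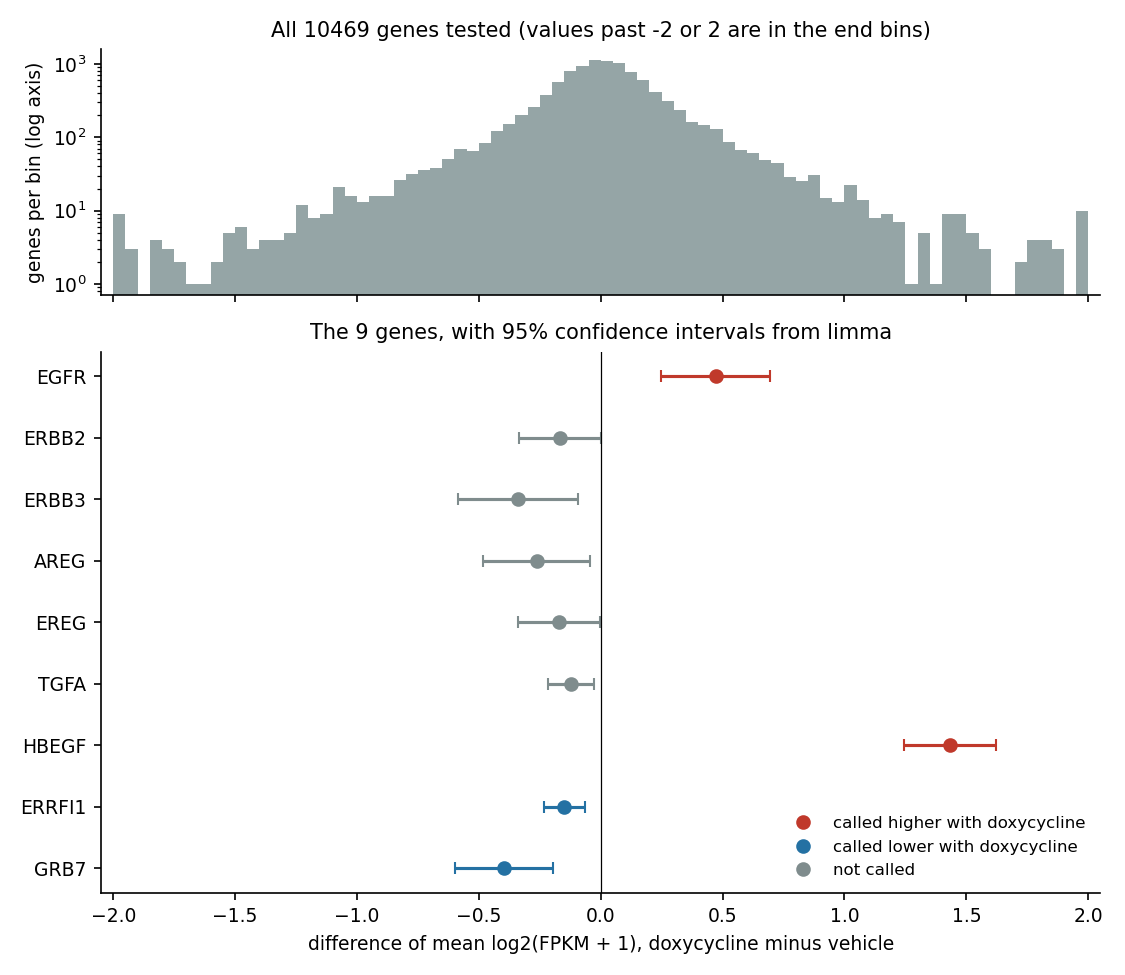
Upper panel, the number of genes (log axis) by difference of mean log2(FPKM + 1), doxycycline minus vehicle, for all 10469 genes tested. Lower panel, the same difference for the 9 genes, with 95% confidence intervals from limma and colours for the call at an adjusted p below 0.05. HBEGF at 1.43 and EGFR at 0.47 lie to the right of 0, and the other 7 lie between -0.40 and -0.12.

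NR1I3, the induced gene, averaged 321 ± 8.51 FPKM in doxycycline cells and 3.24 ± 0.290 FPKM in vehicle cells, where the cDNA and the endogenous gene are not separated. The summed FPKM of the libraries was 204318 to 209372, and such scaled values do not give the depth. Spearman's rho across genes was 0.980 to 0.983 between libraries of a group and 0.952 to 0.957 between libraries of different groups. Of 12 hepatocyte markers all 12 were in the table, and their summed level was 978 to 1012 FPKM in doxycycline libraries and 1841 to 2001 FPKM in vehicle libraries. Albumin (ALB) was low for a hepatocyte marker, at 0.373 ± 0.0951 FPKM in doxycycline cells and 1.87 ± 0.0837 FPKM in vehicle cells, while APOB averaged 444 ± 41.7 FPKM in doxycycline cells and 819 ± 23.6 FPKM in vehicle cells. The part of this lower hepatocyte level in the results below was not tested. Of the markers of other cell types, none of 5 endothelial genes, 2 of 6 immune genes (CD14 and CD68), 2 of 6 fibroblast and stellate cell genes (ACTA2 and PDGFRB) and 3 of 5 bile duct genes (EPCAM, KRT19 and SOX9) were in the table. CD14 had 1.92 ± 0.0768 FPKM in doxycycline cells and 0.0578 ± 0.0256 FPKM in vehicle cells, and was not tested. CD68 went the other way, at 5.08 ± 0.618 FPKM in doxycycline cells, against 8.50 ± 0.211 FPKM in vehicle cells (limma adjusted p = 2.26e-03). The immune pair summed to 6.28 to 7.49 FPKM in doxycycline libraries and 8.42 to 8.80 FPKM in vehicle libraries. The fibroblast pair summed to 16.9 to 18.3 FPKM in doxycycline libraries and 19.1 to 20.2 FPKM in vehicle libraries. Its members moved in opposite directions, with ACTA2 lower at 16.4 ± 0.780 FPKM in doxycycline cells, against 18.6 ± 0.668 FPKM in vehicle cells, and PDGFRB higher at 1.43 ± 0.0327 FPKM in doxycycline cells, against 0.856 ± 0.0957 FPKM in vehicle cells (limma adjusted p = 0.0393 and 3.97e-03). The bile duct genes summed to 264 to 267 FPKM in doxycycline libraries and 239 to 248 FPKM in vehicle libraries, but KRT19 alone was higher, at 134 ± 2.37 FPKM in doxycycline cells, against 90.8 ± 2.97 FPKM in vehicle cells. EPCAM fell to 73.2 ± 0.787 FPKM in doxycycline cells, against 84.2 ± 3.12 FPKM in vehicle cells, and SOX9 to 59.1 ± 2.84 FPKM in doxycycline cells, against 68.1 ± 0.910 FPKM in vehicle cells (limma adjusted p = 1.08e-04 for KRT19, 6.58e-03 for EPCAM and 0.0123 for SOX9).

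The promoters of HBEGF and EGFR, are shown because these are the members that were called higher. RefSeq (GRCh38.p14) gave promoters for 7 of the 9 genes, 9 in all since EGFR and TGFA have 2 starts each, and each runs from 250 bases before the start to 50 after it. Capitals mark the GC box GGGCGG, the AP-1 motif TGANTCA and the nuclear receptor half-site AGGTCA, each searched on both strands, and both EGFR starts are shown because they differ in base composition. The HBEGF promoter lies at chr5:140346554-140346853 on the minus strand, the first EGFR promoter at chr7:55018767-55019066 and the second at chr7:55109589-55109888, both on the plus strand.
HBEGF: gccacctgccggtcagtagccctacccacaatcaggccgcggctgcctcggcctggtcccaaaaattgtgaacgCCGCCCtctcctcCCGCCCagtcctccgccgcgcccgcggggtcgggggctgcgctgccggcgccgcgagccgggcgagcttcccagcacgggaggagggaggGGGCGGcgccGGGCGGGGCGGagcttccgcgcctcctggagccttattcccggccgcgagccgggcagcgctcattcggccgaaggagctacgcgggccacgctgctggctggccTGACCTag
EGFR, first start: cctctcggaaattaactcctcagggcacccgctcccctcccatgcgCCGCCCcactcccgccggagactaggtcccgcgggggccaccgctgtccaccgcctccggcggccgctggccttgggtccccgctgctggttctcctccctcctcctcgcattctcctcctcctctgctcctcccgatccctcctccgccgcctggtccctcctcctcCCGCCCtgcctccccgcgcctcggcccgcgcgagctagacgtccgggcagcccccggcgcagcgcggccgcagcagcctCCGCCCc
EGFR, second start: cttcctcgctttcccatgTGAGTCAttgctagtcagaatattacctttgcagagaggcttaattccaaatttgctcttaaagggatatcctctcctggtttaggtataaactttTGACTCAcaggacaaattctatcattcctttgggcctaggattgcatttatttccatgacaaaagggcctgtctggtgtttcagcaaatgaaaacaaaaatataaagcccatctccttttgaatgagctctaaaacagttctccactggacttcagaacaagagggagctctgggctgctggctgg

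The HBEGF promoter, with 75% G and C, held 5 GC boxes, of which 2 overlap by 1 base, and 1 half-site close to its 3′ end. The first EGFR promoter, with 75.3% G and C, held 3 GC boxes, and the second, with 42% G and C, held no GC box and 2 AP-1 motifs. The median G and C content of all 35116 promoters was 58.7%. A GC box was present in 45% of all promoters and in 5 of the 9 of this family, an AP-1 motif in 7.71% of all and in 2 of the 9, and the half-site in 13.8% of all and in 2 of the 9, those of HBEGF and EREG. The CRE motif TGACGTCA, present in 1.85% of all promoters, was found in 1 of the 9, that of AREG. The TATA box TATAAA was present in 11.5% of all promoters and in 3 of the 9, those of EREG and AREG and the second of EGFR. DR4, the half-site repeated in the same direction with a spacer of 4 bases, which nuclear receptors such as CAR can bind and which contains the half-site, was present in 0.0199% of all promoters and in none of the 9 windows. These matches describe letters in the windows and not binding.

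Among the receptors, EGFR (ENSG00000146648, GRCh37 chr7:55086714-55279321, plus strand) had 4.68, 5.70 and 5.78 FPKM in doxycycline replicates 1 to 3, against 3.27, 3.60 and 3.93 FPKM in vehicle replicates 1 to 3. The lowest doxycycline library lay above the highest vehicle library. The log2 difference was 0.47 (SE 0.09, 95% confidence interval 0.25 to 0.70, limma adjusted p = 0.0123), and the adjusted p stayed at or below 0.0439 in the 15 alternatives that could test it. ERBB3, the kinase-impaired receptor for neuregulins (ENSG00000065361, GRCh37 chr12:56473641-56497289, plus strand), had 26.7, 30.8 and 23.0 FPKM in doxycycline replicates, against 32.9, 33.7 and 35.5 FPKM in vehicle replicates. Doxycycline replicate 2 lay closest to the vehicle libraries and doxycycline replicate 3 farthest from them, with no overlap. ERBB3 just missed the threshold, with a log2 difference of -0.34 (95% confidence interval -0.59 to -0.09, limma adjusted p = 0.0511). Without doxycycline replicate 2 it was -0.44 (adjusted p = 0.0143), with median-ratio scaling the adjusted p was 0.0488 and with a minimum mean of 5 FPKM it was 0.0471, over a range of 0.0143 to 0.134 in the alternatives.

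ERBB2, the receptor without a ligand of its own (ENSG00000141736, GRCh37 chr17:37844167-37886679, plus strand), had 5.11, 5.59 and 4.60 FPKM in doxycycline replicates, against 6.04, 5.67 and 5.81 FPKM in vehicle replicates. The highest doxycycline library lay just under the lowest vehicle library. The log2 difference was -0.17 (95% confidence interval -0.34 to 0.00021, limma adjusted p = 0.123), and ERBB2 was not called in any of its 16 alternatives. ERBB2 overlaps PGAP3 over 8884 bases and MIEN1 over 1931 bases, both on the opposite strand. The libraries keep the strand, but whether the quantification used it is not given in the sources used here.

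The make-up of the receptor mRNA differed between the groups. EGFR made up 12.8, 13.6 and 17.3% of the summed FPKM of the 3 receptors in doxycycline replicates, against 7.75, 8.36 and 8.70% in vehicle replicates. ERBB3 remained the most abundant receptor, at 71.8 ± 2.46% in doxycycline cells and 78.3 ± 0.302% in vehicle cells, and ERBB2 made up 13.7 ± 0.365% in doxycycline cells and 13.5 ± 0.771% in vehicle cells. The ratio of ERBB3 to EGFR FPKM was 5.03 ± 0.920 in doxycycline cells and 9.48 ± 0.524 in vehicle cells, without overlap (exact two-sided permutation p = 0.1, the smallest that 3 against 3 libraries allow). The summed FPKM of the 3 receptors was 33.4 to 42.1 in doxycycline libraries and 42.2 to 45.2 in vehicle libraries. These shares and ratios were chosen with the values of the single genes known.

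**Figure D2:**
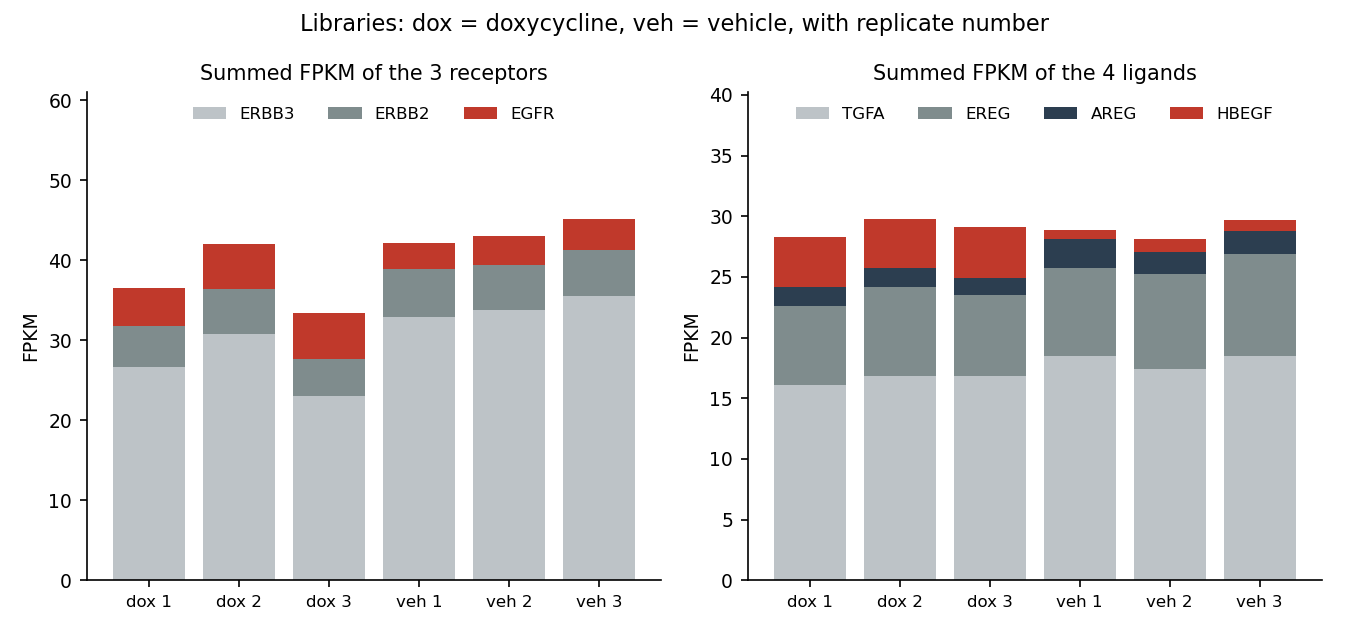
FPKM of the 3 receptors (left) and the 4 ligands (right), stacked in each of the 3 doxycycline and 3 vehicle libraries. AREG is shown without its near-identical copy AREGB. The EGFR band is wider in the doxycycline libraries under a lower ERBB3 band, and the HBEGF band is wider while the summed ligand FPKM stays between 28.2 and 29.8 in all 6 libraries.

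Among the ligands, HBEGF (ENSG00000113070, GRCh37 chr5:139712428-139726216, minus strand) had 4.15, 4.04 and 4.23 FPKM in doxycycline replicates, against 0.746, 1.10 and 0.873 FPKM in vehicle replicates. The doxycycline libraries lay close together and far above the vehicle libraries. The log2 difference was 1.43 (SE 0.08, 95% confidence interval 1.25 to 1.62, limma adjusted p = 8.15e-05), which ranked 79th by size among the 10469 genes. HBEGF entered that fit and that ranking only through its doxycycline level, as given above. With no filter on low values its limma adjusted p was 8.43e-05. HBEGF was called in all 15 alternatives that could test it, with an adjusted p of 7.20e-05 to 2.70e-03.

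TGFA, transforming growth factor alpha and the most abundant ligand here (ENSG00000163235, GRCh37 chr2:70674412-70781325, minus strand), had 16.1, 16.8 and 16.8 FPKM in doxycycline replicates, against 18.4, 17.4 and 18.5 FPKM in vehicle replicates. The groups did not overlap, but the log2 difference was only -0.12 (95% confidence interval -0.22 to -0.03, limma adjusted p = 0.0659). EREG, epiregulin, which binds EGFR and ERBB4 (ENSG00000124882, GRCh37 chr4:75230860-75254468, plus strand), had 6.46, 7.36 and 6.71 FPKM in doxycycline replicates, against 7.25, 7.87 and 8.40 FPKM in vehicle replicates. Doxycycline replicate 2 lay above vehicle replicate 1, so EREG was the only one of the 9 genes whose groups overlapped by the gene's own entry. The log2 difference was -0.17 (95% confidence interval -0.34 to -0.00363, limma adjusted p = 0.116).

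AREG, amphiregulin (ENSG00000109321, GRCh37 chr4:75310851-75320726, plus strand), had 1.57, 1.61 and 1.37 FPKM in doxycycline replicates, against 2.39, 1.81 and 1.89 FPKM in vehicle replicates. The groups did not overlap, and the log2 difference was -0.26 (95% confidence interval -0.48 to -0.04, limma adjusted p = 0.0752). AREG values are uncertain, because the table also lists AREGB, a near-identical copy 159902 bases downstream, and reads can be split between them. AREGB had 1.89, 2.58 and 1.87 FPKM in doxycycline replicates, against 3.18, 2.33 and 2.66 FPKM in vehicle replicates. Summed, the 2 entries averaged 3.63 ± 0.502 FPKM in doxycycline cells and 4.75 ± 0.738 FPKM in vehicle cells, and the groups then overlapped (log2 difference -0.31, limma adjusted p = 0.101, an alternative added after seeing the data, over a range of 0.0685 to 0.185 for AREG).

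The summed FPKM of the 4 ligands was 28.3, 29.8 and 29.1 in doxycycline replicates, against 28.8, 28.2 and 29.7 in vehicle replicates (exact two-sided permutation p = 0.7). AREG entered this sum by its own entry only, without AREGB. Within that sum HBEGF made up 14.2 ± 0.605% in doxycycline cells and 3.15 ± 0.684% in vehicle cells, and TGFA 57.0 ± 0.706% in doxycycline cells and 62.7 ± 1.15% in vehicle cells. Neither share overlapped between the groups (exact permutation p = 0.1 for each, the smallest possible). These shares were also chosen with the values of the single genes known, so they are no further test. Shares of a common sum depend on each other, and TGFA itself was not called.

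ERRFI1, also called MIG6, is an adaptor that binds the kinase domain of EGFR and inhibits it (ENSG00000116285, GRCh37 chr1:8064464-8086368, minus strand). It had 253, 236 and 244 FPKM in doxycycline replicates, against 276, 274 and 263 FPKM in vehicle replicates, and was the 53rd most abundant gene of the table in vehicle cells. The groups did not overlap, with a ratio of 0.901 and a log2 difference of -0.15 (95% confidence interval -0.23 to -0.07, limma adjusted p = 0.0222). The difference of ERRFI1 was small, and its call ended in 6 of 16 alternatives, over a range of adjusted p of 0.0200 to 0.406. These were quantile normalization (log2 difference -0.05, adjusted p = 0.406), limma without the variance trend (0.0509), and leaving out doxycycline replicate 2 (0.0588) or 3 (0.0639) or vehicle replicate 1 (0.0648) or 2 (0.0714). The ratio of ERRFI1 to EGFR FPKM was 45.9 ± 7.11 in doxycycline cells and 75.8 ± 8.71 in vehicle cells, without overlap (exact permutation p = 0.1). This ratio too was chosen with the values of the single genes known.

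GRB7, an adaptor that binds phosphorylated ERBB receptors through its SH2 domain (ENSG00000141738, GRCh37 chr17:37894180-37903544, plus strand), had 6.85, 5.59 and 6.03 FPKM in doxycycline replicates, against 8.46, 8.96 and 7.77 FPKM in vehicle replicates. All doxycycline libraries lay below all vehicle libraries, with a ratio of 0.733 and a log2 difference of -0.40 (SE 0.08, 95% confidence interval -0.60 to -0.19, limma adjusted p = 0.0157). The GRB7 call ended without doxycycline replicate 3 (adjusted p = 0.0518) or vehicle replicate 1 (0.0504) or 2 (0.0515), over a range of 0.0125 to 0.0518. Of its relatives, GRB10 rose to 3.19 ± 0.0846 FPKM in doxycycline cells, against 1.43 ± 0.0990 FPKM in vehicle cells, and GRB14 fell to 2.76 ± 0.240 FPKM, against 4.15 ± 0.762 FPKM in vehicle cells (limma adjusted p = 1.94e-04 and 0.0309). Both are adaptors best known for binding the insulin receptor, and the GRB14 call ended without any 1 of the doxycycline replicates (adjusted p 0.0514 to 0.0901).

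**Figure D3:**
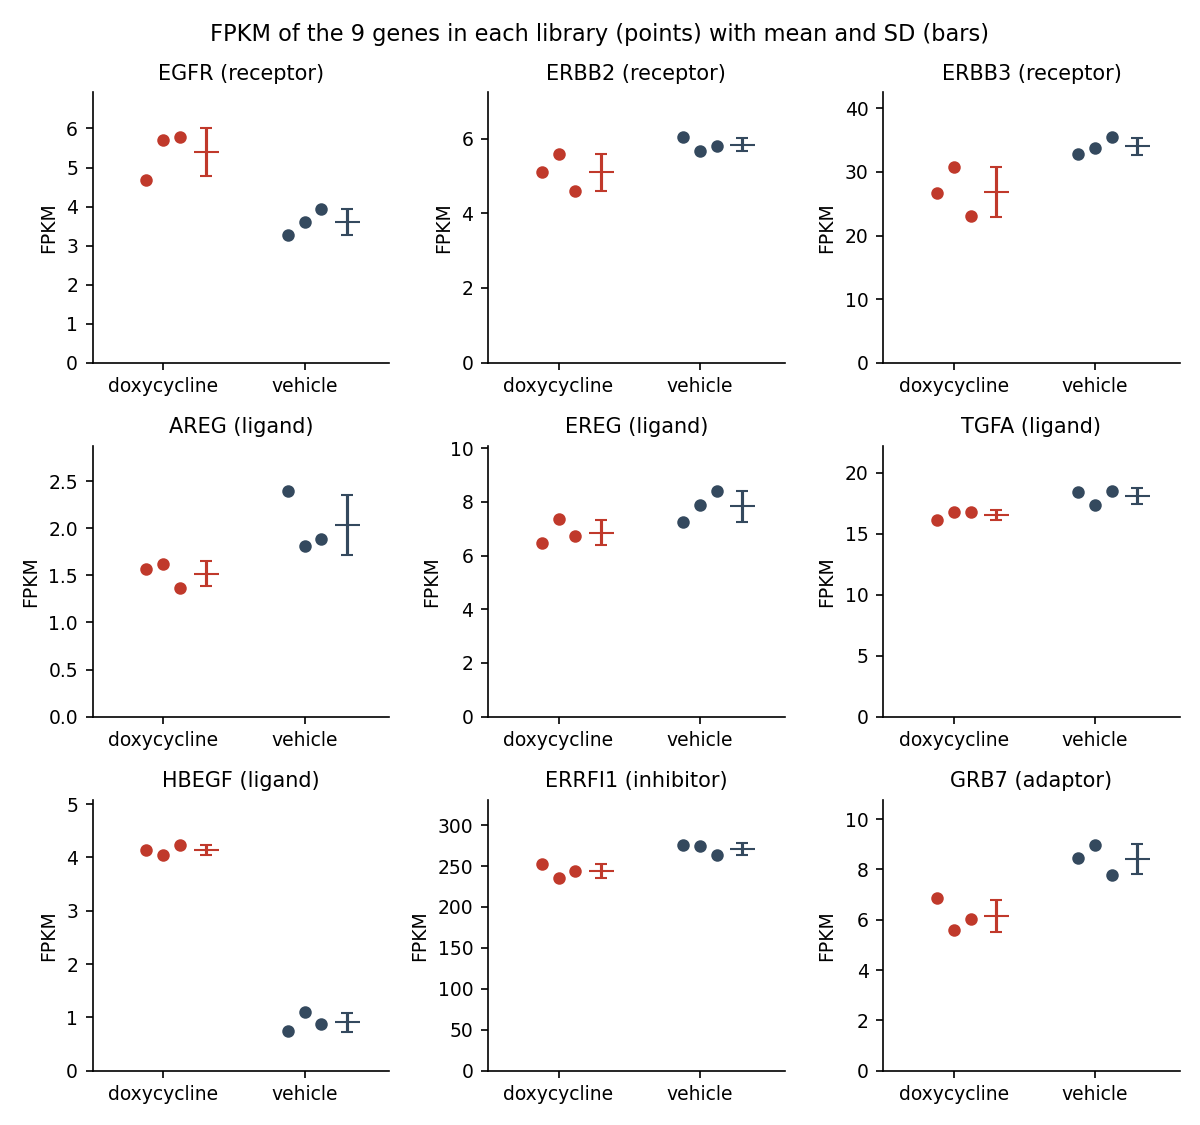
FPKM of each of the 9 genes in every library (points), with mean and SD beside them, doxycycline in red on the left and vehicle in dark blue on the right, each axis starting at 0. HBEGF and EGFR have all doxycycline libraries above all vehicle libraries, EREG overlaps, and the other 6 have all doxycycline libraries below.

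By level, ERRFI1, ERBB3 and TGFA were the most abundant of the 9 in both groups, in that order and without overlap between neighbours. In doxycycline cells EREG, GRB7, EGFR and ERBB2 followed, at means of 6.85 to 5.10 FPKM, and each overlapped its neighbour in that run. HBEGF came next at 4.14 FPKM and AREG last at 1.52 FPKM. In vehicle cells GRB7 and EREG overlapped at 8.40 and 7.84 FPKM, and below them ERBB2, EGFR, AREG and HBEGF were separate, with HBEGF last at 0.906 FPKM.

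ERBB2 and GRB7 are neighbours on chromosome 17, with 7500 bases between them, a segment that is often amplified together in breast cancer. In that neighbourhood the table listed other genes, 7 in number, of which 6 were tested and none was called by limma, while 1, PGAP3, had an unadjusted p below 0.05. Of all genes tested 28.8% were called, and 6 genes are too few to set against that share. MIEN1, which overlaps ERBB2, had 6.69 ± 0.701 FPKM in doxycycline cells and 6.12 ± 0.255 FPKM in vehicle cells. STARD3 averaged 3.65 ± 0.438 FPKM in doxycycline cells and 3.41 ± 0.486 FPKM in vehicle cells, CDK12 9.63 ± 0.345 FPKM in doxycycline cells and 8.97 ± 0.437 FPKM in vehicle cells, and MED1 16.3 ± 0.507 FPKM in doxycycline cells and 16.0 ± 0.342 FPKM in vehicle cells. PGAP3 averaged 0.846 ± 0.116 FPKM in doxycycline cells and 1.22 ± 0.204 FPKM in vehicle cells (limma adjusted p = 0.0736, and 0.0456 without vehicle replicate 3, over a range of 0.0456 to 0.183). GSDMB, not tested, averaged 0.803 ± 0.353 FPKM in doxycycline cells and 0.896 ± 0.192 FPKM in vehicle cells. ORMDL3 had 3.85, 4.47 and 3.91 FPKM in doxycycline replicates, against 3.35, 3.06 and 14.5 FPKM in vehicle replicates, so 1 vehicle library decided its mean.

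EREG and AREG lie 56382 bases apart on chromosome 4, in a stretch that also holds chemokine genes. Apart from EREG and AREG, 4 genes listed for that region were tested, AREGB among them. Of these 1 was called higher and 2 lower, 75%, against 28.8% of all genes tested, in a list chosen with earlier results known. In GRCh37 ALB, AFP and CXCL8 end at 74287129, 74321891 and 74609433, and EREG starts at 75230860. CXCL8, interleukin 8, rose to 9.33 ± 1.26 FPKM in doxycycline cells, against 1.65 ± 0.387 FPKM in vehicle cells. AFP, alpha-fetoprotein, fell to 0.320 ± 0.0650 FPKM, against 6.01 ± 0.377 FPKM in vehicle cells, and ALB fell as given above (limma adjusted p = 1.98e-04 for CXCL8, 1.15e-05 for AFP and 1.58e-04 for ALB). MTHFD2L averaged 1.09 ± 0.259 FPKM in doxycycline cells and 0.871 ± 0.117 FPKM in vehicle cells, and RASSF6 0.619 ± 0.0983 FPKM in doxycycline cells and 0.418 ± 0.0210 FPKM in vehicle cells, both too low to be tested.

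The other genes of the pathway were taken from lists of known components. ERBB4, EGF, BTC, EPGN and NRG1 to NRG4, the remaining receptor and ligands, were not among the 11456 genes and could not be tested. Of 91 tested genes in the remaining lists 24 were called higher and 13 lower, 40.7% against the 28.8% of all genes tested, with a median log2 difference of 0.03. The lists were chosen with earlier results of these data known, so these shares are no test of the pathway. By list, the share called was 33.3% for ligand shedding, 52.9% for adaptors and RAS, and 37.5% for RAF, MEK and ERK. It was 0% for PI3K and AKT, 31.6% for receptor endocytosis and degradation, and 40% for CAR dephosphorylation.

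Of 9 tested genes of ligand shedding 2 rose and 1 fell (median log2 difference 0.19). ADAM17, the main protease that releases TGFA, AREG, EREG and HBEGF, rose to 14.5 ± 0.926 FPKM in doxycycline cells, against 12.5 ± 0.333 FPKM in vehicle cells (limma adjusted p = 0.0380). ADAM9, another membrane metalloprotease, rose to 75.1 ± 0.776 FPKM, against 62.4 ± 2.30 FPKM in vehicle cells, and TIMP3, an inhibitor of ADAM17, fell to 3.97 ± 0.124 FPKM, against 5.00 ± 0.342 FPKM (adjusted p = 2.32e-03 and 0.0170). The call of ADAM17 ended when any 1 of 5 libraries was left out, all but doxycycline replicate 2 (adjusted p 0.0658 to 0.107), and under quantile normalization (0.0569). That of TIMP3 ended without doxycycline replicate 2 or 3 (0.0542 and 0.0550).

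Of 17 adaptors and RAS genes 6 rose and 3 fell (median log2 difference 0.08). SOS2, an exchange factor for RAS, rose to 5.18 ± 0.164 FPKM in doxycycline cells, against 4.08 ± 0.125 FPKM in vehicle cells (limma adjusted p = 6.19e-03). SHC2, an adaptor, rose to 1.90 ± 0.117 FPKM, against 1.20 ± 0.262 FPKM in vehicle cells (adjusted p = 0.0255). GAB1, a docking protein that recruits PI3K, fell to 1.34 ± 0.0795 FPKM, against 2.46 ± 0.139 FPKM in vehicle cells (adjusted p = 9.21e-04). SOS1 fell to 10.5 ± 0.221 FPKM, against 11.9 ± 0.447 FPKM in vehicle cells, and the adaptor CRKL to 23.4 ± 0.728 FPKM, against 26.1 ± 0.580 FPKM (adjusted p = 0.0352 and 0.0255). The calls of SHC2 (all doxycycline replicates and vehicle replicate 2), SOS1 (all but vehicle replicate 3) and CRKL (all but doxycycline replicate 1) ended when 1 of these libraries was left out, at an adjusted p of 0.0543 to 0.0773, 0.0717 to 0.10 and 0.0519 to 0.0771.

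Of 8 RAF, MEK and ERK genes 1 rose and 2 fell (median log2 difference -0.01). KSR1, a scaffold of this cascade, had 2.48, 6.25 and 2.49 FPKM in doxycycline replicates, against 1.11, 1.15 and 1.08 FPKM in vehicle replicates (limma adjusted p = 0.0377). MAPK3, an ERK kinase, fell to 7.71 ± 0.402 FPKM in doxycycline cells, against 9.06 ± 0.134 FPKM in vehicle cells (adjusted p = 0.0202). Both calls ended without some single libraries, KSR1 without any 1 vehicle replicate (adjusted p 0.0919 to 0.0957) and MAPK3 without doxycycline replicate 1 or 2 or vehicle replicate 1 or 3 (0.0603 to 0.0644). Of 9 tested PI3K and AKT genes none was called by limma, and 1 had an unadjusted p below 0.05. This was PIK3CA, a catalytic subunit, with 4.80 ± 0.234 FPKM in doxycycline cells and 4.27 ± 0.150 FPKM in vehicle cells.

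Of 19 tested genes of receptor endocytosis and degradation 3 rose and 3 fell (median log2 difference 0.01). LRIG1, a membrane protein that promotes degradation of ERBB receptors, fell to 1.29 ± 0.0555 FPKM in doxycycline cells, against 3.75 ± 0.201 FPKM in vehicle cells, a ratio of 0.343 (limma adjusted p = 6.96e-05). LRIG3, its relative, fell to 1.41 ± 0.218 FPKM, against 2.75 ± 0.138 FPKM in vehicle cells, and CBLC, a ubiquitin ligase, to 2.10 ± 0.502 FPKM, against 3.72 ± 0.379 FPKM (adjusted p = 2.18e-03 and 0.0151). STAM and HGS, which form the complex that sorts ubiquitinated receptors at endosomes, rose, STAM to 44.2 ± 0.392 FPKM, against 28.8 ± 1.76 FPKM in vehicle cells, and HGS to 12.3 ± 0.592 FPKM, against 9.68 ± 0.224 FPKM (adjusted p = 3.37e-04 and 4.21e-03). STAM2 rose to 6.99 ± 0.184 FPKM, against 5.96 ± 0.279 FPKM in vehicle cells (adjusted p = 0.0255). The call of CBLC ended without doxycycline replicate 1 or vehicle replicate 1 or 2 (adjusted p 0.0511 to 0.0518), and that of STAM2 without any 1 library but vehicle replicate 2 (0.0542 to 0.0782).

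Of 18 tested genes that ERK signalling is known to induce, many of them feedback inhibitors, 9 rose and 3 fell (median log2 difference 0.17). The share called was 66.7%, against 28.8% of all genes tested, in a list chosen with earlier results known. At most 3 genes in each direction are described, so most of those that rose are not. DUSP5, a nuclear ERK phosphatase, rose to 17.1 ± 0.991 FPKM in doxycycline cells, against 5.15 ± 0.542 FPKM in vehicle cells, a ratio of 3.32, and DUSP4 to 2.43 ± 0.0793 FPKM, against 1.11 ± 0.176 FPKM (limma adjusted p = 6.74e-05 and 1.15e-03). FOSL1, a subunit of AP-1, rose to 9.01 ± 0.541 FPKM, against 5.46 ± 0.164 FPKM in vehicle cells (adjusted p = 4.80e-04). ETV4, an ETS factor, fell to 40.2 ± 0.877 FPKM, against 51.9 ± 0.598 FPKM in vehicle cells, and DUSP6, a cytoplasmic ERK phosphatase, to 23.7 ± 2.76 FPKM, against 29.4 ± 0.654 FPKM (adjusted p = 3.27e-04 and 0.0400). IER3, an immediate early gene, fell to 228 ± 2.47 FPKM, against 248 ± 4.47 FPKM in vehicle cells (adjusted p = 0.0132). The call of DUSP6 ended without doxycycline replicate 2 or any vehicle replicate (adjusted p 0.0504 to 0.107) and that of IER3 without vehicle replicate 3 (0.0511), under quantile normalization (0.132) and without the variance trend (0.0562). SOCS3, SOCS4 and SOCS5, other feedback inhibitors of receptor signalling, were not called, and none had an unadjusted p below 0.05.

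Of 5 genes of CAR dephosphorylation PPP2CA and PPP2CB, the catalytic subunits of PP2A, rose. PPP2CA averaged 33.1 ± 0.317 FPKM in doxycycline cells and 28.5 ± 0.366 FPKM in vehicle cells, and PPP2CB 19.0 ± 1.19 FPKM in doxycycline cells and 15.9 ± 0.846 FPKM in vehicle cells (limma adjusted p = 2.58e-03 and 0.0301). RACK1 had 41.6, 44.7 and 42.4 FPKM in doxycycline replicates, against 55.6, 50.5 and 44.8 FPKM in vehicle replicates, and was not called (adjusted p = 0.0890). The call of PPP2CB ended without doxycycline replicate 1 or 2 or vehicle replicate 1 or 2 (adjusted p 0.0778 to 0.0893).

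**Figure D4:**
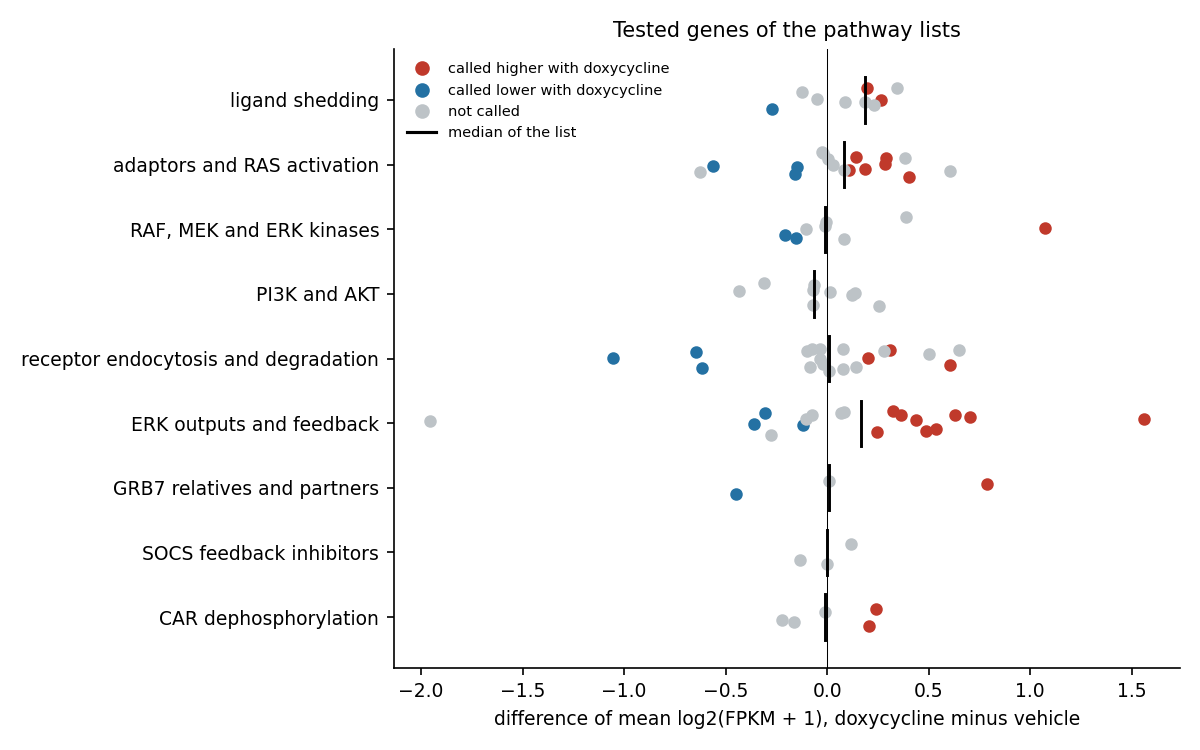
Difference of mean log2(FPKM + 1), doxycycline minus vehicle, for each tested gene of the pathway lists (points, spread vertically at random within a list), coloured by the call, with the median of each list as a black bar. The medians lie between -0.06 and 0.19, the genes farthest to the right are DUSP5 and KSR1, and the grey point farthest to the left is MYC, at -1.96 and not called.

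The genes whose values over the 6 libraries were most like those of HBEGF, by the root mean square difference of log2(FPKM + 1) after subtracting each gene's vehicle mean, were FURIN (0.0589), KLRC3 (0.0644) and C8orf4 (0.0698). FURIN averaged 37.3 ± 0.553 FPKM in doxycycline cells and 12.9 ± 0.493 FPKM in vehicle cells, KLRC3 3.67 ± 0.342 FPKM in doxycycline cells and 0.685 ± 0.180 FPKM in vehicle cells, and C8orf4 69.6 ± 1.64 FPKM in doxycycline cells and 24.7 ± 1.68 FPKM in vehicle cells. Those most like GRB7, the gene of this family with the largest called decrease, were C2CD4A (0.0397), ILVBL (0.0433) and SLC16A13 (0.0496). C2CD4A averaged 0.884 ± 0.153 FPKM in doxycycline cells and 1.48 ± 0.0622 FPKM in vehicle cells, ILVBL 5.48 ± 0.297 FPKM in doxycycline cells and 7.49 ± 0.550 FPKM in vehicle cells, and SLC16A13 5.55 ± 0.528 FPKM in doxycycline cells and 7.83 ± 0.571 FPKM in vehicle cells. All were measured in the same 6 libraries, and the measure takes in the size of the difference between the groups.

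**Figure D5:**
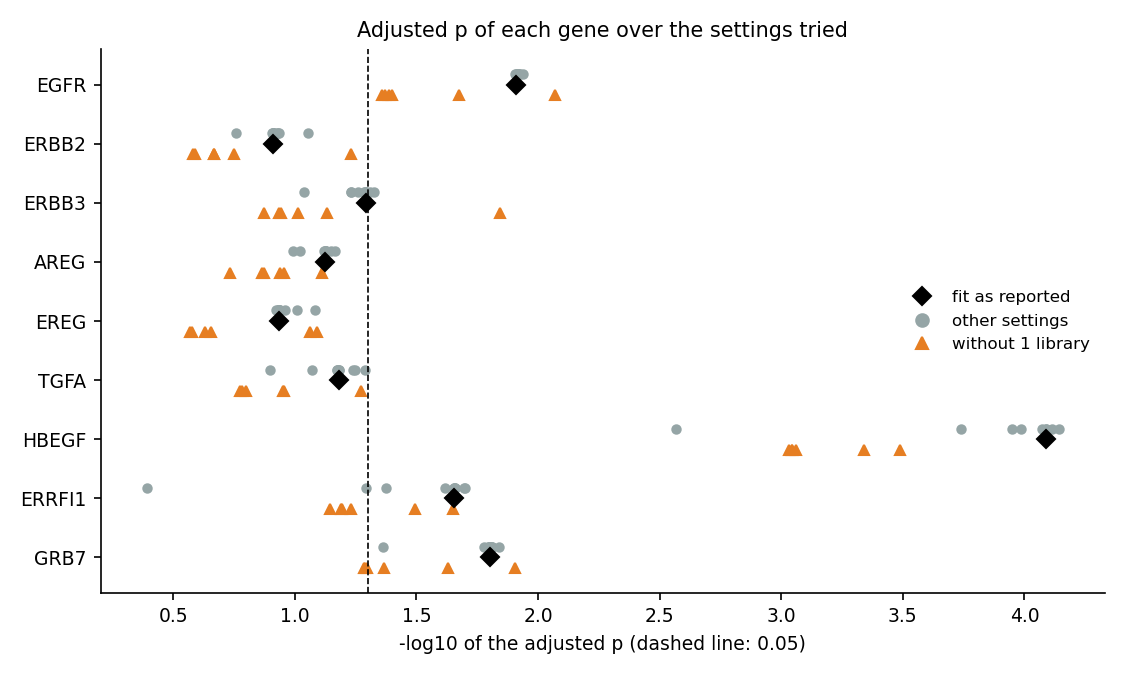
The -log10 of the limma adjusted p of each of the 9 genes in the fit as reported (black diamonds), under other settings (grey circles) and without 1 library at a time (orange triangles), with a dashed line at 0.05. HBEGF and EGFR stay right of the line throughout, GRB7 and ERRFI1 cross it to the left, and ERBB3 lies at it.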

How the data were processed

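Messenger RNA of 6 libraries was measured, 3 per group. Per the labels, polyadenylated RNA was made into strand-specific libraries with dUTP. The authors deposited FPKM values, 1 column per library, and the submitters' processing notes name FastQC, cutadapt, HISAT2, StringTie and GRCh37. Their versions, options and annotation are not given in the sources used here. The table had 11461 entries, and the smallest value of the larger group mean was 0.500 FPKM, so weaker genes were not analysed here. Of 5 symbols with more than 1 entry the most abundant entry was kept. No counts were used, so depth is unknown and no counting interval is given.

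Group means of log2(FPKM + 1) were compared with limma 3.58.1 in R 4.3.3 (lmFit and eBayes with a variance trend), without a replicate block. The procedure was also run on simulated data, and the outcome is not reported here. For single values an exact permutation test over libraries was used. Pathway lists are described by counts, without a test. The genes named are the 9, NR1I3, up to 3 called genes of each pathway list in each direction (some are counted but not reported here by name), the listed neighbours and the 3 most similar genes of 2 called members; other names (APOB, PIK3CA, RACK1, SOCS genes, cell type markers) were chosen after their values were seen. The members and lists were chosen with earlier results of these data known. Figures were drawn with matplotlib 3.10.9 in python 3.11.15.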

Additional observations from a re-analysis of the deposited data

How the results depend on the processing

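Of 141 fits of the 9 genes under alternative settings none reversed a direction, 129 stayed on the same side of the threshold, 9 ended a call (6 of ERRFI1 and 3 of GRB7) and 3 added one (ERBB3). The number of the 9 called higher was 0 with a minimum mean of 5 FPKM, which left HBEGF and EGFR untested, and 2 in the other settings at a threshold of 0.05. The number called lower was 3 with a minimum mean of 5 FPKM and 3 with median-ratio scaling, 1 with quantile normalization and 1 without the variance trend, and 0 to 2 when 1 library was left out (0 without doxycycline replicate 3, vehicle replicate 1 or vehicle replicate 2). At an adjusted p below 0.01 it was 1 called higher, 0 called lower and 1636 of all genes, against 3012 at 0.05. Without 1 library, 2309 to 2378 of all genes were called. The replicate numbers are shared by the groups, and the deviations of same-numbered libraries correlated at 0.01, -0.03 and 0.09. These values give no sign that the numbers pair the libraries. The labels state no pairing, and so few libraries cannot exclude it. With the replicate block 2343 of all genes were called, with 2 of the 9 higher and 2 lower, while ADAM17 (adjusted p = 0.0959), CBLC (0.0561), CRKL (0.0692), GRB14 (0.0763), KSR1 (0.0516), MAPK3 (0.0522), PPP2CB (0.0849), SOS1 (0.0931) and STAM2 (0.0760) were no longer called by limma. Not every library correlated best with its own number. For 45 other genes 701 fits under alternatives were made, of which 634 kept the side of the threshold, 64 ended a call and 1 added one (PGAP3). Among these genes 2 that were not called reversed, ORMDL3 without vehicle replicate 3 (log2 difference 0.27, the highest of -0.70 to 0.27 without 1 library) and STARD3 without vehicle replicate 2 (-0.0182, the lowest of -0.0182 to 0.151), and the cause was not tested. Depth is unknown, so what it limits at low FPKM cannot be stated.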

Other observations

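Several pathway genes had 1 library apart from the others of its group, noted after their values were seen. Doxycycline replicate 2 had 31.8 FPKM of GRB2, the adaptor that links receptors to SOS proteins, against 9.12 and 9.17 FPKM in doxycycline replicates 1 and 3 and 8.13 to 10.2 FPKM in vehicle libraries. The same library had 29.7 FPKM of CRK, against 17.5 and 17.8 FPKM in the other doxycycline libraries, and 6.25 FPKM of KSR1, against 2.48 and 2.49 FPKM. Vehicle replicate 3 had 1.01 FPKM of CBL, the ubiquitin ligase of EGFR, against 4.73 and 4.44 FPKM in the other vehicle libraries and 4.76 to 5.69 FPKM in doxycycline libraries.
MYC, a transcription factor induced by growth factors, had 3.19, 2.90 and 2.99 FPKM in doxycycline replicates, against 3.20, 23.4 and 36.4 FPKM in vehicle replicates, and was not called (limma adjusted p = 0.116).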
